A study of Mus musculus with 4 samples.

Results

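The genes described here encode 9 intermediate filament proteins: the neurofilament subunits Nefm, Nefl and Nefh, the related neuronal filament genes Ina and Prph, the progenitor filament nestin (Nes), vimentin (Vim), the glial filament Gfap and the nuclear lamin gene Lmna. They are 9 of the 18193 genes that had a probe set with a single gene symbol on the array, and they were covered by 25 of its 45037 probe sets. They were chosen by protein family and by the intensities of these same arrays, on which Nefm was lower than in the control at all 3 times after withdrawal and Nes at 72 h. Those differences are therefore given as a description, with no test.

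Intermediate filaments are rope-like polymers of coiled-coil proteins, and which of them a cell makes follows its lineage and state. Neurofilaments fill the axons of mature neurons, nestin marks neural progenitors and many tumours, vimentin is the main filament of mesenchymal and many neural crest-derived cells, and the lamins line the inside of the nuclear envelope. Melanocytes come from the neural crest, and melanoma cells can express filaments of neural or progenitor type.

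Gene expression was measured in allografts of the mouse melanoma line iNRAS-475, whose expression of NRAS, a small GTPase upstream of the RAF, MEK and ERK kinases, depends on doxycycline. The cells were grown in the dermis of nude mice, which lack T cells but keep macrophages and other innate immune cells, and all hosts drank water with 2 mg/ml doxycycline for about 6 weeks. The control tumour stayed on the drug until harvest, and the others were taken 24, 48 and 72 h after it was withdrawn, with 1 array for each of these 4 groups. All arrays share the 1 cell line and the host strain; further alleles of the line, the host's age and whether tumours were pooled are not given in the sources used here.

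With 1 array per condition the spread between tumours is unknown, and a difference between arrays can come from the animal or the piece of tumour as well as from the time off the drug; these cannot be told apart. Values are deposited intensities on a linear scale. Differences are those of log2(intensity + 32), an off array minus the control unless stated otherwise, which understates the differences of dim probe sets. A gene is called 2-fold lower or higher at a difference of -1 or below or of 1 or above, and its value is that of its brightest probe set. Intensities of different probe sets are not comparable as amounts of RNA.

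Of the labelled cell type, the neural crest factor Sox10 had intensities of 3771 on doxycycline and 3613, 4681 and 3844 at 24, 48 and 72 h. Its other probe sets were at -0.55 and -0.09 at 72 h. Of the pigment cell genes Mlana, Tyr and Tyrp1 were at or below 25.2 on all 4 arrays, close to or under the intensity of 24.9 used as a level filter. The melanosome gene Pmel read 73.1 on doxycycline and 49.8, 103 and 200 at 24, 48 and 72 h, 2-fold higher at 72 h, and Mitf, the melanocyte transcription factor, read 50.3 and then 56.5, 93.1 and 115. Dct, Mc1r, Slc45a2 and Gpnmb read between 25.7 and 83.8 and were not 2-fold different at any time. Summed over 10 melanocytic markers the intensity was 4208, 3982, 5156 and 4440 over the same arrays, most of it from Sox10. Without Sox10 the sum was 437, 369, 476 and 596. Marker sums of host cells at 72 h stood at 373% of the control for 10 fibroblast genes, 262% for 10 macrophage genes, 1094% for 10 skeletal muscle genes and 547% for 6 adipocyte genes. At 24 h, when Nefm was already 2-fold lower, the macrophage sum was at 173% of the control, skeletal muscle at 169%, pericytes at 145%, fibroblasts at 103% and adipocytes at 52.8%. The fibroblast sum came mostly from Col1a1, Col1a2 and Col3a1. Of the 10 fibroblast genes, 6 were below the control at 24 h, with Lum at -0.86 and Dcn at -0.73, and 4 were above it. Their median was -0.12. Pdgfra was at -0.58 and -0.57 at 48 and 72 h, when 8 and 9 of the 10 were above the control. Most of the skeletal muscle difference at 24 h came from Acta1, which read 47.5 on doxycycline and 284 at 24 h. Tnnc2 and Mylpf were at 0.72 and 0.44 at 24 h, and the other skeletal muscle genes lay between -0.09 and 0.17. At 48 h the fibroblast sum was at 210%, the macrophage sum at 141% and the skeletal muscle sum at 91.9%. For 10 Schwann cell and nerve genes, several of which melanoma cells also express, the sum was at 191% at 48 h and 211% at 72 h. Sums for 10 endothelial and 10 pericyte genes were at 162% and 127% at 72 h and for 9 keratinocyte genes at 99.9%. The pericyte sum includes Cspg4, which read 603 on doxycycline and 133 at 72 h, while 6 of the 8 pericyte genes above the filter were above the control. No marker was listed at 0. Their part in the differences described here was not tested. In such bulk samples fewer cells of a type and less RNA per cell cannot be told apart.

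**Figure D1:**
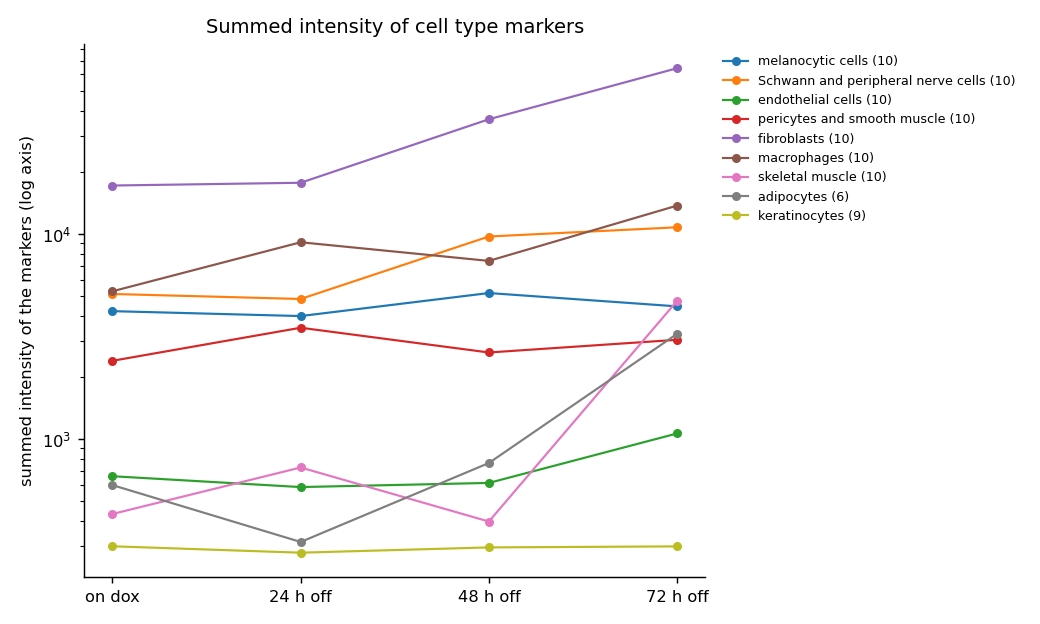
Summed intensity (log axis) of the markers of each cell type on the array on doxycycline and 24, 48 and 72 h after withdrawal, with the number of genes summed in brackets; each point is 1 array. The melanocytic sum, mostly Sox10, lay between 3982 and 5156, while the skeletal muscle and adipocyte sums were far higher at 72 h than on the other arrays.

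Promoter sequences are shown for Nes and Vim, bright filament genes of which the first was 2-fold lower after withdrawal and the second was not. RefSeq promoter entries (GRCm38.p6) matched 6 of the 9 genes; Nefm, Nefl and Nefh had none. Each sequence is the 250 bases before the annotated start, 5′ to 3′ on the gene's strand. Capitals mark matches to the letters of a TATA box, TATAAA, searched on the gene's strand, and of an SP1 GC box, GGGCGG, an AP-1 site, TGANTCA, and an ETS site, CCGGAA, searched on both strands; no matches overlap here. The Nes sequence is chr3:87970843-87971092, plus strand, and the Vim sequence is chr2:13574061-13574310, plus strand.
Nes: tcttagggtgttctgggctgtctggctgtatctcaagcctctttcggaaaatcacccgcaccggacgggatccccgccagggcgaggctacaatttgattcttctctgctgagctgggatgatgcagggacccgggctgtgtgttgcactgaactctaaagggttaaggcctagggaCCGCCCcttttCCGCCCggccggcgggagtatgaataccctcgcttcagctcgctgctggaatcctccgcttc
Vim: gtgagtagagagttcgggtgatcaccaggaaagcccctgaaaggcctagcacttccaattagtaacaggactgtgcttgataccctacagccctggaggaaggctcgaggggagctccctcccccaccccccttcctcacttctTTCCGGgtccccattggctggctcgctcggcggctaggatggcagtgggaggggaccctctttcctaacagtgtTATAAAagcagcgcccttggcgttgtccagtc
The Nes window held 2 GC boxes and no match to the other letters. The Vim window held a TATA box that began 32 bases before the start, an ETS match in reverse complement and no GC box or AP-1 match. Of all 32851 promoter windows of this length, 32.7% held the GC box, 7.59% the TATA box, 12.0% the ETS letters and 6.75% the AP-1 letters, so each match is common and describes these windows only. No window of the 6 genes held an AP-1 match.

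The neurofilament genes Nefm and Nefl were much lower on the 48 and 72 h arrays than on the control array. Nefm encodes the medium neurofilament subunit, whose long tail projects from the filament. Its probe set read 537 on doxycycline and 231, 65.9 and 55.0 at 24, 48 and 72 h. Each array was lower than the one before it in time, and most of the difference lay between the control and 48 h. The differences were -1.11, -2.54 and -2.71, and the intensity at 72 h was 10.2% of the control's. At 24 h Nefm had rank 5 from the lowest of 13522 genes above the level filter. That value was among those that chose the members, so nothing is read from the rank.

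Nefl encodes the light subunit, the core on which the other neurofilament proteins assemble. Its brightest probe set read 1028 on doxycycline and 821, 208 and 71.6 at 24, 48 and 72 h, and the other read 784 and then 515, 123 and 39.2. The probe sets moved together on all 4 arrays. Differences were -0.31, -2.14 and -3.35 for the first and -0.58, -2.39 and -3.52 for the second. At 72 h the intensities were 6.97% and 5.01% of the control's. Nefl thus ended lower relative to its control than Nefm did, although at 24 h Nefm stood at 43.1% of its control and Nefl at 79.9% and 65.8%. Nefm began dimmer, at 537, and at 72 h both genes were near the array medians of 33.3 to 34.0, which limits the comparison at that time. These orders rest on 1 array per time, and the difference between the genes was not tested.

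Nefl and Nefm lie side by side on chromosome 14 (GRCm38.p6 positions 68083863 to 68089095 and 68119545 to 68125004, from RefSeq), with 30449 bases between them. Within 500 kb of the pair, 4 other genes were above the level filter, namely Cdca2, Kctd9, Dock5 and A230070E04Rik, a noncoding RNA that overlaps Nefm. Their differences at 72 h lay between -0.17 and 0.39, and none was 2-fold lower at any time. At 72 h 1.63% of all genes above the filter were 2-fold lower, so a count of 0 among 4 is near that share. A230070E04Rik itself read 67.8 on doxycycline and 73.7 at 72 h.

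The other neuronal filament genes were dim and nearly level. Nefh, the heavy neurofilament subunit (chromosome 11), read between 12.7 and 14.2 on all 4 arrays. Ina, which encodes alpha-internexin (chromosome 19), read between 14.1 and 22.1 over its 3 probe sets. Both genes lay under the level filter, so a difference in them could hardly be seen. Prph, which encodes peripherin, a filament of peripheral neurons (chromosome 15), was read by 4 probe sets at 16.1 to 65.1, with differences from -0.08 to 0.11. The lower values of the neurofilament genes were thus seen for Nefm and Nefl, and no difference was detectable at these intensities for Nefh, Ina and Prph.

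**Figure D2:**
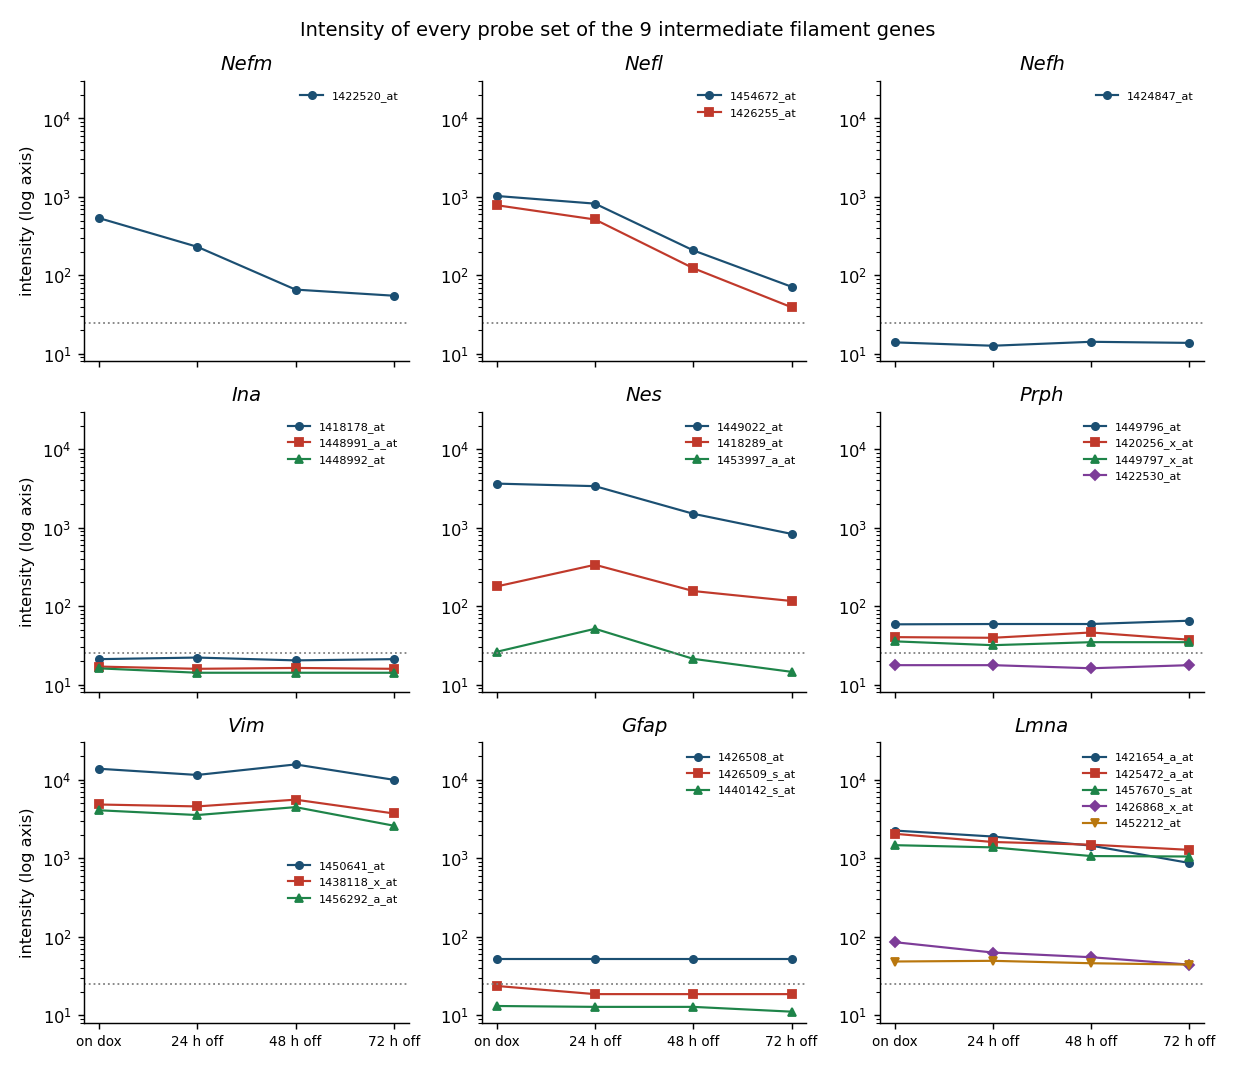
Intensity (log axis) of each of the 25 probe sets over the 4 arrays, in 1 panel per gene; each point is 1 array and the dotted line is the level filter of 24.9. Nefm and both Nefl probe sets drop steeply between 24 and 48 h, Vim stays bright, and Nefh, Ina and Gfap stay dim.

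Nestin RNA was lower at 48 and 72 h by its brightest probe set, while 2 dimmer probe sets were at their highest at 24 h. Nes (chromosome 3, 87971093 to 87980451) encodes a filament protein of dividing progenitors that co-assembles with vimentin. Probe set 1449022_at read 3637 on doxycycline and 3376, 1501 and 831 at 24, 48 and 72 h, with differences of -0.11, -1.26 and -2.09. The control and 24 h arrays were high, 48 h lay between, and 72 h was at 22.9% of the control. Probe set 1418289_at read 178, 336, 155 and 116, and 1453997_a_at read 26.1, 51.3, 21.2 and 14.5. Both were above the control at 24 h, by 0.81 and 0.52, and below it at 72 h, by -0.50 and -0.32. The 3 probe sets therefore gave different sizes and, at 24 h, different directions.

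The probe sets of Nes were closer to each other when the control array was left out. From 24 to 72 h off doxycycline their differences were -1.98, -1.31 and -0.84, all lower at 72 h. For the other members over the same interval, Nefl was at -3.04, Nefm at -1.60 and Lmna at -1.09 by their brightest probe sets. The other Lmna probe sets lay between -0.38 and -0.10. By brightest probe set, 4 of the 9 genes were 2-fold lower at 72 h than at 24 h and 0 were 2-fold higher. Of all genes above the level filter, 1.85% were 2-fold lower and 1.97% were 2-fold higher in that comparison. These values share the 24 and 72 h arrays with the comparisons against the control, which chose the members. Nothing is therefore read from the count beside those shares.

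Vimentin stayed bright throughout. Vim (chromosome 2) had intensities of 13853 on doxycycline and 11545, 15726 and 10013 at 24, 48 and 72 h at its brightest probe set. The 48 h array was highest and the 72 h array lowest, and the other probe sets had the same order of arrays. Differences over the 3 probe sets lay between -0.26 and -0.08 at 24 h, 0.13 and 0.20 at 48 h, and -0.65 and -0.38 at 72 h. None reached 2-fold. Fibroblasts, endothelial cells and macrophages also express vimentin, and the fibroblast and macrophage marker sums were higher than the control at 72 h. How much of the Vim signal came from each cell type was not tested and cannot be told apart in these bulk samples. Gfap, the filament of astrocytes and of some Schwann cells (chromosome 11), read 51.4 on every array at its brightest probe set, and its other probe sets read between 11.1 and 23.6. Exactly equal values occur throughout the deposited table: 9 of these 25 probe sets and 48.0% of all probe sets had a tie between arrays, and their origin is unknown.

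Lmna, which encodes the A-type lamins of the nuclear envelope (chromosome 3, 88481148 to 88509932), was lower after withdrawal by a size that depended on the probe set. Probe set 1421654_a_at read 2259 on doxycycline and 1895, 1452 and 872 at 24, 48 and 72 h, with a difference of -1.34 at 72 h. Each array was lower than the one before it in time. Probe set 1425472_a_at, almost as bright, read 2054 and then 1614, 1491 and 1281, with a difference of -0.67 at 72 h, and 1457670_s_at read 1470 and then 1378, 1068 and 1054, with a difference of -0.47. Both showed the same direction with less than 2-fold. The dim probe sets 1426868_x_at and 1452212_at had differences of -0.62 and -0.08 at 72 h. Lmna transcripts are spliced into lamin A and lamin C forms, and the annotation used here does not assign the probe sets to them.

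Nes and Lmna lie on chromosome 3 with 500696 bases between them. Of the 38 other genes above the level filter that lie between them or within 500 kb to either side, 0 were 2-fold lower at any time, with differences at 72 h from -0.39 to 1.23 and a median of 0.03. The 1 gene that was 2-fold higher was Crabp2, a retinoic acid binding protein next to Nes, which read 133 on doxycycline and 357 at 72 h. Over all genes above the filter 1.63% were 2-fold lower and 2.29% were 2-fold higher at 72 h. Counts of 0 lower and 1 higher among 38 are near those shares.

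By gene, 1 of the 9 members was 2-fold lower at 24 h (Nefm), 3 at 48 h (Nefm, Nefl and Nes) and 4 at 72 h (with Lmna), and 0 were 2-fold higher at any time. Of all 13522 genes above the level filter, 0.0666%, 1.04% and 1.63% were 2-fold lower at 24, 48 and 72 h and 0.266%, 0.754% and 2.29% were 2-fold higher. These contrasts chose the members, so nothing is read from the counts beside those shares. By probe set, 1, 4 and 5 of 25 were 2-fold lower, where 0.0355%, 0.453% and 0.77% of all probe sets were. Over the 9 genes the median difference came to -0.11, -0.02 and -0.47 at 24, 48 and 72 h, against 0 at each time over all genes above the filter. Of the 9 genes 7 lay above the filter, all but Nefh and Ina. Over these 7 the median was -0.25, -0.63 and -1.34 at 24, 48 and 72 h. These medians too come from the contrasts that chose the members. At 72 h 95% of the genes above the filter had differences between -0.80 and 0.96.

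**Figure D3:**
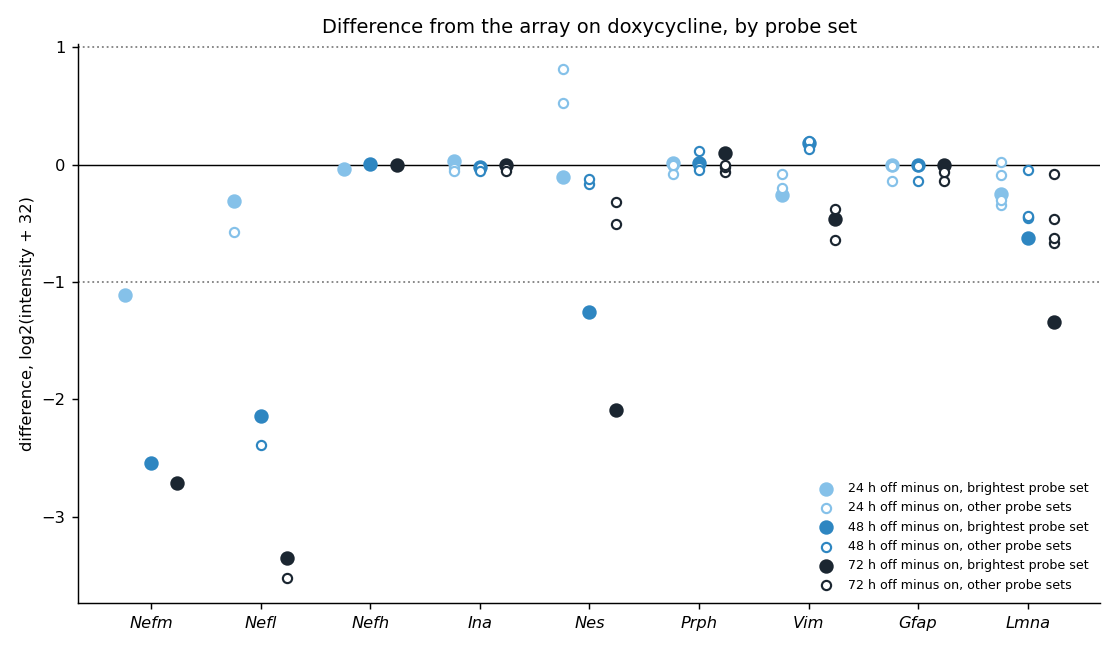
Difference of each probe set from the array on doxycycline, on the scale log2(intensity + 32), by gene; pale, mid and dark points are 24, 48 and 72 h, filled points are the brightest probe set and dotted lines mark 2-fold. Nefl reaches -3.35 and -3.52 at 72 h with its probe sets together, whereas the probe sets of Nes and Lmna spread apart.

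The share of the 72 h difference already present at earlier times varied between genes and between probe sets. At 24 h Nefm had 41.0% of its 72 h difference, Lmna 18.6%, Nefl 9.35% and Nes 5.10%, by their brightest probe sets. At 48 h the shares were 93.8% for Nefm, 63.8% for Nefl, 60.3% for Nes and 46.7% for Lmna. From 48 to 72 h Nefm differed by -0.17, and Nefl, Nes and Lmna by -1.21, -0.83 and -0.72. At 48 h Nefm read 65.9, not far above the array medians of 33.3 to 34.0, while Nefl, Nes and Lmna read 208, 1501 and 1452. A further drop could therefore be seen less well for Nefm, which limits its shares beside those of the others. The order turned on the probe set: at 24 h the second Nefl probe set had 16.4% of its 72 h difference and Lmna 1425472_a_at had 51.2%, more than the 41.0% of Nefm, while 2 Nes probe sets were above the control. At 48 h Lmna 1457670_s_at had 96.0%. Each time is a different tumour, and no difference in onset was tested.

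The genes whose 3 differences from the control were nearest to those of Nefm, by Euclidean distance among genes above the filter, were S100a3 (a calcium binding protein, distance 0.59), Nppb (a natriuretic peptide precursor, 0.63), the kallikrein Klk10 (0.78), Crabp1 (a retinoic acid binding protein, 0.82) and Dusp6 (a phosphatase of ERK, 0.96). At 24 h all 5 were less far below the control than Nefm, with Crabp1 closest at -0.92. The genes nearest to Nes were Ggct (0.09), Tnfaip2 (0.26), the sterol enzyme Msmo1 (0.28), Ier5l (0.30) and Pla2g7, a lipoprotein-associated phospholipase (0.30), although other probe sets of Ggct and Msmo1 were between -0.10 and 0.00 at 72 h, those of Tnfaip2 between -2.34 and -0.09 and that of Ier5l at -0.83. By the same measure, applied to Nefl after its values were seen, the nearest genes were Dusp6 (0.18), Dusp4, a related phosphatase (0.30), the metalloprotease inhibitor Timp1 (0.40), S100a3 (0.56) and the uridine phosphorylase Upp1 (0.64). Dusp6 had differences of -0.34, -2.25 and -3.21 at 24, 48 and 72 h, and Nefl of -0.31, -2.14 and -3.35. Likeness over 4 arrays that share 1 control describes these arrays only.

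**Figure D4:**
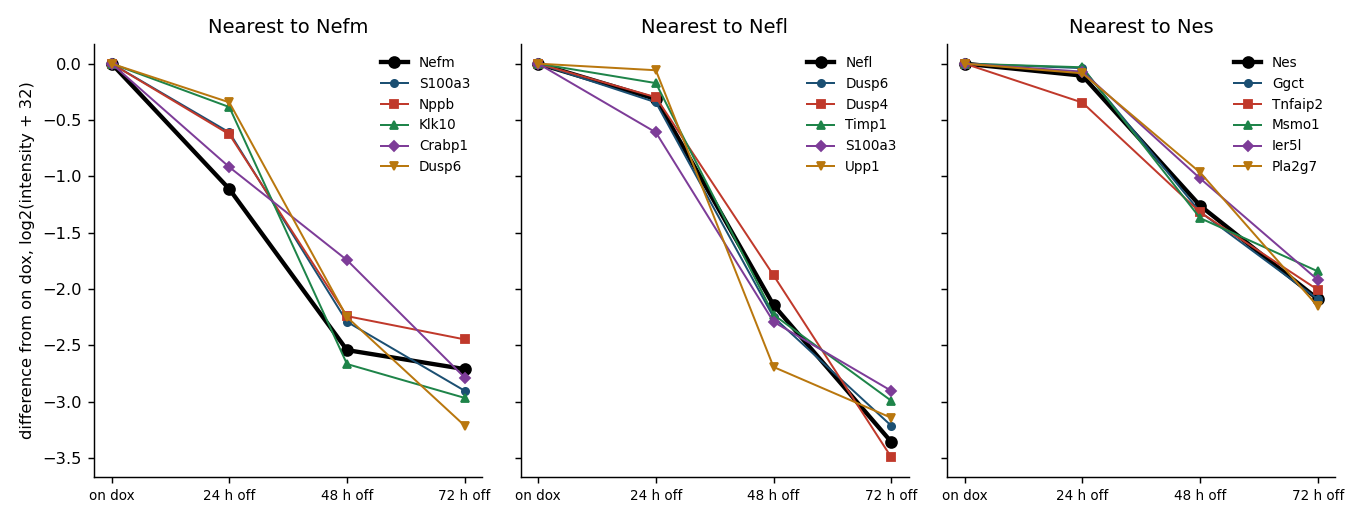
Differences from the array on doxycycline, on the scale log2(intensity + 32), for Nefm, Nefl and Nes (black) and the 5 genes nearest to each; each point is 1 array. Nefm lies below all of its nearest genes at 24 h, whereas Nefl runs almost along Dusp6.

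Among other genes of cytoplasmic filaments, synemin was higher at 48 and 72 h. Of 24 such genes, mostly keratins, 18 were above the level filter: 0 were 2-fold lower at any time and 1 was 2-fold higher at 48 and 72 h, with a list median of 0.02 at 72 h. At 72 h 1.63% of all genes above the filter were 2-fold lower and 2.29% were 2-fold higher, so these counts are near those shares. The higher gene was Synm, which encodes synemin, a large filament protein that links desmin and vimentin to adhesion sites. It read 76.6 on doxycycline and 78.6, 198 and 303 at 24, 48 and 72 h. The control and 24 h arrays were alike and the later arrays were higher, by 1.08 and 1.63, and its other probe set was higher by 1.91 and 2.14. Desmin (Des), the filament of muscle cells and pericytes, was at 0.74 at 72 h with another probe set at -0.55. Krt18, a keratin of simple epithelia, was at 0.97 at 72 h, and Krt20 differed by at most -0.37, at 24 h. At 48 h the skeletal muscle marker sum was at 91.9% of the control and the fibroblast and Schwann cell sums were at 210% and 191%. The Schwann cell list was mixed at that time: Cdh19, Cnp, S100b and Ngfr had differences from 0.61 to 1.95. Mbp, Pmp22 and Cldn19 lay between -0.54 and -0.16, and Mal, Ncmap and Mag between 0 and 0.11. Which cells gave the Synm signal was not tested.

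None of 18 nuclear lamina genes other than Lmna was 2-fold different at any time, and the list median was 0.17, 0.00 and 0.00 at 24, 48 and 72 h. At 72 h 1.63% of all genes above the filter were 2-fold lower and 2.29% were 2-fold higher, so this count is near those shares. The B-type lamin gene Lmnb1 read 137 on doxycycline and 231, 129 and 137 at 24, 48 and 72 h, so the 24 h array stood above the others, by a difference of 0.64 from the control. Named by the size of their mean difference, the envelope proteins Lemd2 and Syne3 were at -0.24 and -0.58 at 72 h, and Tor1aip1 and the farnesyltransferase subunit Fnta, which takes part in prelamin A processing, were at 0.86 and 0.73.

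Linkers of cytoplasmic filaments included 1 gene of 14 above the filter that was 2-fold higher at 72 h and 0 that were 2-fold lower. Of all genes above the filter, 2.29% were 2-fold higher and 1.63% were 2-fold lower at 72 h. With 1 gene of 14, nothing is read from these counts. Dst, which encodes the cytolinker dystonin, read 456 on doxycycline and 652, 831 and 957 at 24, 48 and 72 h, each array higher than the one before it. The difference at 72 h was 1.02, and its other probe sets lay between -0.05 and 0.82. The related cytolinker Macf1 was at 0.76, the small heat shock protein Hspb1 at -0.22 and the scaffold Spag9 at 0.53 at 72 h. Other probe sets of Macf1 lay between 0.07 and 0.81, that of Hspb1 at -0.38 and those of Spag9 between 0.02 and 0.05. Plec, which encodes the filament linker plectin, read 2427 on doxycycline and 1385 at 72 h, a difference of -0.79. Its other probe sets lay between -0.90 and -0.17.

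Of 20 neuronal genes 16 were above the level filter. Among these, 0, 0 and 1 were 2-fold lower at 24, 48 and 72 h, and 0 were 2-fold higher. Of all genes above the filter, 0.0666%, 1.04% and 1.63% were 2-fold lower and 0.266%, 0.754% and 2.29% were 2-fold higher. With 1 gene of 16, nothing is read from these counts. The median difference of the 16 at 72 h was -0.16, against 0 over all genes above the filter. The 1 gene that was 2-fold lower was Map2, a microtubule protein of dendrites. It read 123 on doxycycline and 147, 61.1 and 39.8 at 24, 48 and 72 h. Its difference at 72 h was -1.11, but its other probe sets lay between -0.01 and 0.08. The neuronal ubiquitin hydrolase Uchl1 read 395 on doxycycline and 289, 279 and 191, lower by a difference of -0.94 at 72 h. The neuronal tubulin Tubb3 was at -0.90 at 48 h and -0.46 at 72 h, and the adhesion molecule L1cam was at 0.88 and 0.90. Another L1cam probe set was at 0.56 and 0.24. Stmn2, a microtubule regulator of growing axons, was at 0.56 and -0.24 at these times, with another probe set at 0.13 and -1.29.

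Of 10 transcription factors tied to neural filament genes and above the filter, Hes1, a Notch target and repressor, was 2-fold lower at 72 h. Sox2, a progenitor factor, was 2-fold higher at 48 h. Of all genes above the filter, 1.63% were 2-fold lower at 72 h and 0.754% were 2-fold higher at 48 h. With 1 gene of 10 in each direction, nothing is read from these counts. Hes1 read 352 on doxycycline and 314, 163 and 129 at 24, 48 and 72 h, with differences of -0.98 and -1.26 at the later times. Sox2 read 43.1 and then 47.4, 123 and 101, with differences of 1.05 and 0.83 at 48 and 72 h. Sox2 binds the Nes enhancer in neural progenitors. At 48 and 72 h Sox2 was above its control level and every Nes probe set was below its own. A link between these genes was not tested. Zeb2 and Pax3 were at 0.82 and 0.18 at 72 h. Rest, which encodes the repressor of neuronal genes, read 173 on doxycycline and 175, 183 and 169, so the arrays differed little.

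**Figure D5:**
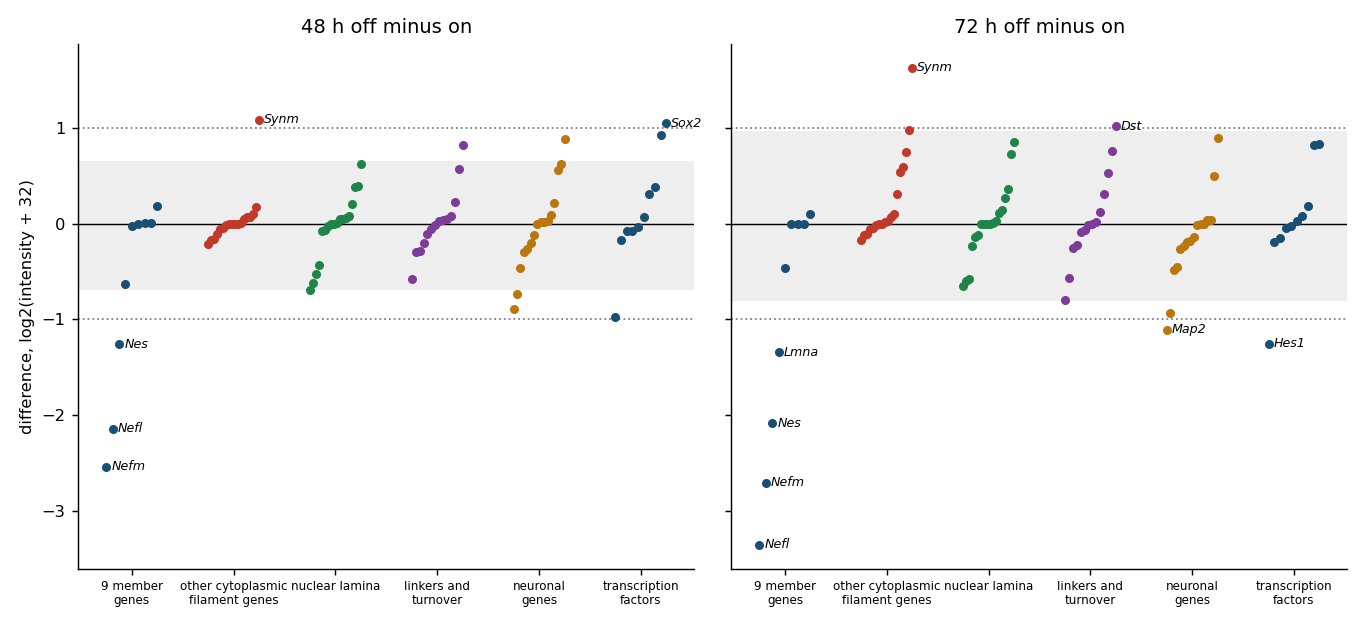
Differences from the array on doxycycline at 48 h (left) and 72 h (right), on the scale log2(intensity + 32), for the 9 members and for the genes above the level filter in the other 5 lists; the grey band holds 95% of all genes above the filter, dotted lines mark 2-fold and genes past them are named. Nefl, Nefm and Nes lie well below the band at both times, and Synm lies above it.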

How the data were processed

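Per the labels' protocols, a frozen piece of each tumour (about 50 mg) gave total RNA by Trizol extraction, of which 10 ug were turned into biotinylated cRNA for an Affymetrix array. The authors deposited 1 linear intensity per probe set and array; MAS5 and RMA are both named, without a role, per the submitters' processing notes, so scale and normalization between arrays are not known. Array medians lay between 33.3 and 34.0, and the number of arrays, 4, limits the precision.

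From the deposited intensities, differences of log2(intensity + 32) were computed with no further scaling (Python 3.11.15, pandas 2.3.3, NumPy 2.4.6). Symbols came from the platform annotation, updated by gene ID through RefSeq; probe sets with 1 symbol (34945) were used. The level filter was the 40th percentile of mean intensity, which kept 13522 genes. With 1 array per group no test was run. The calculation was checked on simulated data. Members and lists were chosen with earlier results of these data known. All members were named, with, from each list, the 4 genes of greatest mean difference and those 2-fold different at 2 or more times, and the 5 genes nearest to Nefm and to Nes. Lmnb1, Plec, Rest, Stmn2, the melanocytic markers without Sox10, the genes nearest to Nefl, the chromosomal neighbours and the motifs were chosen after values were seen. Alternatives were pseudocounts of 8 and of 4 times 32, median centring, quantile normalization, other choices of probe set, no level filter, one at the 60th percentile, and each off array left out.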

Additional observations from a re-analysis of the deposited data

How the results depend on the processing

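No member difference changed sign among those called 2-fold. Of 48 counts of 2-fold different members recomputed under another choice, 4 differed from the count given. Counts without the level filter could not differ, because the counts given already include the members under it. Counts with the filter at the 60th percentile could not either, because it removes only Nefh and Ina, which were never 2-fold different. The 48 thus include counts that were the same by construction, so 4 of 48 understates how much the counts depended on the choice. Median centring and quantile normalization moved no call and shifted member differences by at most 0.01 and 0.16. With a pseudocount 4 times as large, Nefm at 24 h was at -0.89, so the count of 2-fold lower genes at 24 h was 0. With the mean over probe sets, Nes was at -0.52 at 48 h and -0.97 at 72 h and Lmna at -0.64 at 72 h, which left counts of 2 at 48 h, against 3, and 2 at 72 h, against 4. The same choice put Nes at 0.41 at 24 h, against -0.11 by its brightest probe set. With x, s and a probe sets left out, Lmna was at -0.078 at 72 h, which was also the median of the members, and the count at 72 h was 3. With a filter at the 60th percentile, which removes Nefh and Ina, the median was -0.63 at 48 h and -1.34 at 72 h. The mean difference over the off arrays was -1.15 for Nes and lay between -1.67 and -0.68 with 1 array left out, the last without the 72 h array. For Nefl it was -1.94, from -2.75 to -1.23, the last without the 72 h array, and for Lmna -0.74, from -0.98 to -0.44, again without the 72 h array. No paired analysis was possible because each group had 1 array. Dim probe sets (Nefh, Ina) limit what can be seen.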
